A study of Mus musculus with 8 samples.

Results

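The creatine kinase and adenylate kinase energy shuttle was followed through 8 genes out of 38293 gene identifiers in the count table. They were chosen by symbol, with earlier results of these data known. The genes are Ckm, Ckmt2, Ckb, Slc6a8, Ak1, Ak3, Ak4 and, as the oxygen-binding companion of the system, Mb. RNA came from the left ventricles of untreated C57BL/6-background males aged 8 weeks. There were 4 wild-type (WT) hearts, replicates 1 to 4, and 4 hearts of mORF4/NBDY knockout (KO) mice, replicates 5 to 8, with 1 poly(A) library for each heart. The knockout allele is not described in the labels. Nbdy, the targeted gene, whose small protein associates with the machinery of mRNA decapping, averaged 19.4 ± 0.470 CPM among WT hearts and 9.92 ± 0.412 among KO hearts, with separate ranges. CPM are counts scaled to a common library size by TMM, and ± after a level, share or ratio is the SD over the 4 hearts of a genotype.

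Muscle contraction uses ATP far from where most of it is made. Creatine kinases move a phosphate between ATP and creatine, so that phosphocreatine can carry energy from mitochondria to the myofibrils and ion pumps. Adenylate kinases convert ADP into ATP and AMP, and the AMP is a signal of energy shortage that AMP-activated protein kinase senses. Heart muscle imports its creatine from blood through the transporter Slc6a8. Myoglobin binds oxygen in heart muscle and oxidative skeletal muscle.

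None of the 8 genes differed between KO and WT in edgeR's quasi-likelihood test, and the CPM ranges of the genotypes overlapped for every one of them. All 8 had enough counts to be tested. The median log2 fold change of the 8 was -0.02, with 3 positive and 5 negative values, and it was -0.0032 over all 13336 genes tested. Of these 13336 genes, 0.0225% passed an adjusted p of 0.05 (0.015% higher and 0.0075% lower in KO), so a count of 0 among 8 says little about the shuttle in particular. At an unadjusted p under 0.05 the count among the 8 was also 0, against 6.4% of all genes. DESeq2, which called 0.0825% of all genes, and limma-voom, which called 0.0225%, likewise called 0 of the 8. Ranges that did not overlap were found for 4.12% of all genes tested, with KO higher for 2.14% and lower for 1.98%.

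The 4 promoters printed here belong to the 3 genes with the highest levels, which varied together from heart to heart, and to the brain-type kinase gene Ckb as the low member of the same family. RefSeq windows were at hand for 7 of the 8 genes. Each window runs from 250 bases before to 50 bases after a transcription start in GRCm38.p6, and for Mb the window at the start of the longest APPRIS principal transcript was taken. Capitals mark matches, on either strand, to the E-box CANNTG, the TATA box TATANA, the GC box GGGCGG and the MEF2 site, a binding element of muscle transcription factors.
Ckm, chr7:19410844-19411143, plus strand: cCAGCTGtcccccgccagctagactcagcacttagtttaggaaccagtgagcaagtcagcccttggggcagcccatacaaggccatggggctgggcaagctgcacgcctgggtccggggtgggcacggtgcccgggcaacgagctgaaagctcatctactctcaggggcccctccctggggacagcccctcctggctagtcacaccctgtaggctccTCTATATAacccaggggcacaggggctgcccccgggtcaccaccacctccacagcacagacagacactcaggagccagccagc
Ckmt2, chr13:91876836-91877135, minus strand: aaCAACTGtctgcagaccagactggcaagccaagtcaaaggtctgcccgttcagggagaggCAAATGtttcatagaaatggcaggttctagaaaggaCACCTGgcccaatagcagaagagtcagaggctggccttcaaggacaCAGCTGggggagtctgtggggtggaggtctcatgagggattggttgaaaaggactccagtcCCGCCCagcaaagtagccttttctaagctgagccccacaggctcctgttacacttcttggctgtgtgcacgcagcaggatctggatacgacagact
Mb, chr15:77022738-77023037, minus strand: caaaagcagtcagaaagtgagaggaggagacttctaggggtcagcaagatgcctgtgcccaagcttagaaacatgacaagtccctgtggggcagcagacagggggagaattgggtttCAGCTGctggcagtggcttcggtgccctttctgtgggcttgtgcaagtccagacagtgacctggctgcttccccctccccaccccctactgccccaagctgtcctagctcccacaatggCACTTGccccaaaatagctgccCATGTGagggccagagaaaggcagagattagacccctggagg
Ckb, chr12:111672289-111672588, minus strand: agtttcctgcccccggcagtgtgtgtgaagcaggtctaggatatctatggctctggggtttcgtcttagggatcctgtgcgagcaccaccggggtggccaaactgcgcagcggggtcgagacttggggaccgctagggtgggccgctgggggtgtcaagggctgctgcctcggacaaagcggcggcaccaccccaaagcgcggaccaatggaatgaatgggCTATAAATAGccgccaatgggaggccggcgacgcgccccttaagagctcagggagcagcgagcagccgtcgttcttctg

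The E-box letters occurred 4 times in the Ckmt2 window, 3 times in the Mb window and once in the Ckm window, and the Ckb window held 0. An E-box match was present in 72.3% of all 32851 windows of this length, so it is no mark of these genes. TATA box letters were found in the Ckm and Ckb windows, as in 24.7% of all windows, and the Ckmt2 window held a GC box, as in 35.7%. The MEF2 match of the Ckb window overlaps its TATA box, and 3.19% of all windows held such a match. No CArG box and no AAGGTCA element was found in the 4 windows, which says only that these letters are not in them.

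The levels of the 8 genes spanned a wide range when they were compared per length, as CPM per kilobase of the union of a gene's annotated exons. Mb stood first among 12443 tested nuclear protein-coding genes, with a mean of 10694 CPM per kilobase over the 8 hearts. The sarcomeric mitochondrial kinase gene Ckmt2 ranked 14th at 1865 and the muscle kinase gene Ckm ranked 27th at 1048. Ak1 followed at rank 188 with 179 CPM per kilobase. Slc6a8, Ak3 and Ckb lay close together at 25.8, 23.3 and 21.9, and their ranges over the 8 hearts overlapped, so their order is not resolved. Ak4 was lowest at 4.00 CPM per kilobase, in the middle of all genes ranked at 6260.

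The order of Ckmt2 and Ckm depends on the length that is used. By the union of exons Ckmt2 was 1.78-fold higher than Ckm, and higher in 8 of 8 hearts. With the shortest basic protein-coding transcript of each gene, 1235 bases for Ckm and 1486 for Ckmt2, the ratio was 0.754 and Ckm was the higher. The same choice put Ckb above Ak3, by 43.1 against 25.9 CPM per kilobase. The other steps of the order kept their direction.

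**Figure D1:**
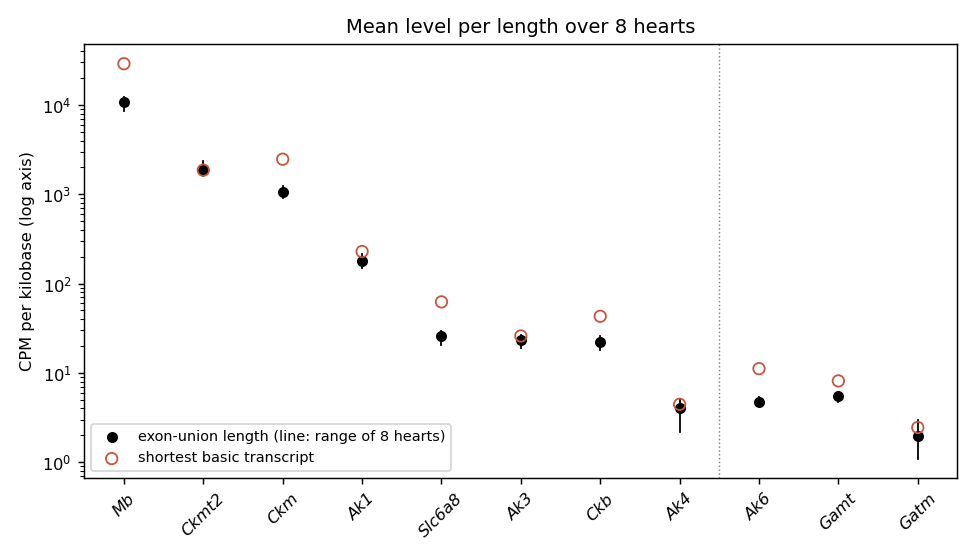
Mean level per length of the 8 genes (left of the dotted line) and of 3 related genes, on a log axis in CPM per kilobase; filled points use the union of exons with a line for the range of 8 hearts, and open circles use the shortest basic transcript. Mb stands above all others at 10694, and Ckm and Ckmt2 change places between the 2 lengths.

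Ckm (ENSMUSG00000030399, chromosome 7, 19404776 to 19422841, plus strand, GRCm38) encodes the cytosolic muscle creatine kinase, part of which sits at the M-band of the sarcomere. WT replicates 1 to 4 held 2626, 3615, 2803 and 3326 CPM of Ckm, and KO replicates 5 to 8 held 3099, 2761, 3007 and 3196. The KO hearts lay inside the WT range. On the log2 scale KO differed from WT by -0.04 ± 0.13, where ± is the SE as for all log2 fold changes given here, and edgeR's adjusted p was 0.973. The 95% interval ran from a 0.799-fold to a 1.19-fold level.

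Ckmt2 (ENSMUSG00000021622, chromosome 13, 91853387 to 91876885, minus strand) encodes the mitochondrial creatine kinase of striated muscle, which lies between the mitochondrial membranes and takes up newly exported ATP. The WT hearts held 2512, 3499, 2596 and 3120 CPM of Ckmt2, in order of replicate, and the KO hearts 2799, 2528, 2411 and 2710. WT replicates 2 and 4 were above every KO heart, and the other WT hearts lay among them. A log2 fold change of -0.17 ± 0.14, the lowest of the 8 genes, had an edgeR adjusted p of 0.833 and a fold interval of 0.727 to 1.09, and it was -0.07 without WT replicate 2.

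Ckb (ENSMUSG00000001270, chromosome 12, 111669361 to 111672338, minus strand) encodes the brain-type cytosolic kinase, which many tissues other than striated muscle use. The 4 WT hearts, by replicate number, held 52.2, 65.8, 64.9 and 74.5 CPM of Ckb, and the 4 KO hearts 58.7, 57.3, 75.1 and 58.6. KO replicate 7 stood apart from the other KO hearts, which lay close to each other, and the genotypes overlapped. Ckb gave a log2 fold change of -0.04 ± 0.13 with an edgeR adjusted p of 0.969 and a fold interval of 0.796 to 1.182, and -0.15 without KO replicate 7. In whole-tissue RNA, a change in the number of cells of a type and a change in RNA per cell cannot be told apart.

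Ckmt1, the ubiquitous mitochondrial kinase gene, was at the edge of detection, with 0 to 7 counts in a heart. Per length and by the union of exons, Ckmt2 made up 64.5 ± 0.503% of creatine kinase transcripts in WT and 62.4 ± 1.48% in KO. Ckm made up 34.8 ± 0.418% in WT and 36.8 ± 1.38% in KO. Ckb contributed 0.732 ± 0.0886% in WT and 0.770 ± 0.135% in KO. With the shortest basic transcripts the WT shares were 55.4% for Ckm and 43.6% for Ckmt2, so which of the 2 is the larger depends on the length, and Ckb stays small with both.

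Ckm and Ckmt2 deviated from their genotype mean in the same direction in each heart, though Ckm lay almost at its mean in KO replicate 7. In WT the ratio of their counts varied less than either level. In KO the ratio varied about as much as the levels. Among KO hearts, Ckm was highest in replicate 8 and lowest in replicate 6, while Ckmt2 was highest in replicate 5 and lowest in replicate 7. Ckm counts over Ckmt2 counts came to 1.05, 1.03, 1.08 and 1.07 in the 4 WT hearts, by replicate number, and to 1.11, 1.09, 1.25 and 1.179 in the 4 KO hearts. Every KO heart was above every WT heart, with a mean of 1.06 ± 0.0209 in WT against 1.16 ± 0.0713 in KO, a 1.09-fold difference. The exact two-sided permutation p was 0.0286, the smallest that 4 against 4 hearts can give. Of the 28 ratios that 8 genes form, 1 had separate ranges. Its permutation p after adjustment over the 28 was 0.800, which did not pass. A ratio that is alone at the smallest possible p cannot pass this adjustment, however large its difference. The adjusted p therefore does not decide whether the ratio differs between genotypes. Over the 13308 other tested genes with a count in every library, ratios to Ckmt2 had separate ranges in 4.22% of cases and ratios to Ckm in 1.98%. With any 1 WT heart left out the exact permutation p was 0.0857, and with any 1 KO heart left out it was 0.0286, the smallest that 3 against 4 hearts can give. Without a WT heart the ranges stayed separate and the log2 difference ran from 0.118 to 0.140, against 0.129 with all hearts. These p-values come from groups of uneven size and are not on the same footing as that of 4 against 4. The ratio needs no library scaling, and it was examined after the values of both genes had been seen.

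**Figure D2:**
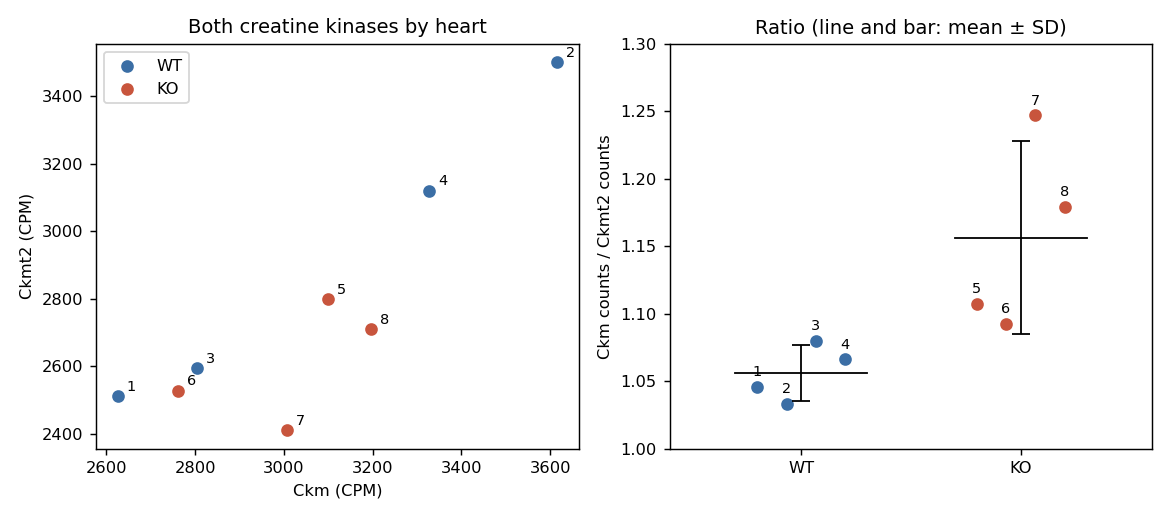
Left, Ckmt2 against Ckm in CPM, 1 point per heart with its replicate number; right, the ratio of their counts by genotype with mean ± SD, on an axis that starts at 1. The 4 WT ratios lie between 1.03 and 1.08 and the 4 KO ratios between 1.09 and 1.25.

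Slc6a8 (ENSMUSG00000019558, chromosome X, 73673150 to 73682502, plus strand) encodes the creatine transporter of the plasma membrane. Nbdy lies on the same chromosome at a distant position, 153723590 to 153741920. WT hearts held 133.8, 106.5, 138.5 and 125.7 CPM and KO hearts 151.7, 140.4, 136.7 and 140.9. Of the KO hearts 3 were above every WT heart, and KO replicate 7 was just below WT replicate 3. Its log2 fold change of 0.18 ± 0.11 was the highest of the 8 and did not pass, with an adjusted p of 0.797 in edgeR and a fold interval of 0.956 to 1.33. Without WT replicate 2, the lowest heart, it was 0.10. That heart held 15.3 CPM summed over 4 adipocyte markers, of which Lep was at 0, against 0.700 to 2.54 CPM in the other hearts, and their part in the result was not tested.

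Both genes that make creatine were expressed at low levels. Gatm, for the enzyme that forms the precursor guanidinoacetate, averaged 5.82 ± 2.17 CPM among WT hearts and 5.87 ± 2.88 among KO hearts. Gamt, for the methyltransferase that completes creatine, averaged 7.44 ± 0.742 CPM among WT and 8.48 ± 0.429 among KO hearts, a log2 fold change of 0.19 ± 0.15 with an edgeR adjusted p of 0.8287. Of the 7 genes of creatine synthesis, uptake and kinases, 6 were tested and 0 passed in either direction, with a median log2 fold change of -0.02.

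Ak1 (ENSMUSG00000026817, chromosome 2, 32621758 to 32635058, plus strand) encodes the cytosolic adenylate kinase of muscle. Ak1 reached 389.0, 452.4, 424.5 and 552.4 CPM in the WT hearts and 480.9, 482.5, 432.3 and 509.0 CPM in the KO hearts. WT replicates 1 and 4 were the lowest and the highest of all hearts, and the KO hearts lay between them. Between genotypes the log2 fold change was 0.07 ± 0.13, with an edgeR adjusted p of 0.944 and a fold interval of 0.866 to 1.27.

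Ak3 (ENSMUSG00000024782, chromosome 19, 29020833 to 29047961, minus strand) encodes the matrix enzyme that uses GTP to phosphorylate AMP. WT hearts held 79.9, 65.4, 59.4 and 82.2 CPM of Ak3 and KO hearts 65.9, 72.5, 73.4 and 83.7. Both genotypes spread over much the same range, with the lowest heart in WT and the highest in KO. Its log2 fold change of 0.04 ± 0.13 had an adjusted p of 0.970 in edgeR and a fold interval of 0.850 to 1.25. Ak3 overlaps Cdc37l1 on the opposite strand, which held 423 to 849 counts in a heart, and the strand setting of the counting is not given in the sources used here.

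Ak4 (ENSMUSG00000028527, chromosome 4, 101419277 to 101466995, plus strand) encodes a mitochondrial matrix family member that responds to hypoxia in cultured human cells. WT hearts held 10.04, 20.8, 21.1 and 23.7 CPM and KO hearts 19.9, 17.7, 16.5 and 18.8. WT replicate 1 was far below the other hearts, and the remaining 3 WT hearts were above every KO heart. With all hearts Ak4 stood at -0.05 ± 0.21 on the log2 scale, with an adjusted p of 0.974 in edgeR and a fold interval of 0.701 to 1.32. Without WT replicate 1 it was -0.26, with an unadjusted p of 0.0554 and an adjusted p of 0.475 in edgeR. That heart had the highest share of mitochondrially encoded counts, 29.2%, whose part in the value was not tested.

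Taken among the summed levels per length of 8 adenylate kinase genes (Ak1, Ak3 to Ak9), by the union of exons, Ak1 made up 84.5 ± 1.51% in WT and 85.004 ± 0.820% in KO. Ak3 had 11.2 ± 1.92% in WT and 10.97 ± 0.948% in KO. Ak4 had 1.94 ± 0.522% and 1.82 ± 0.115%, and Ak6, a mostly nuclear member, 2.39 ± 0.395% and 2.17 ± 0.208%. The Ak6 share is uncertain, and with the shortest basic transcripts it was 4.37% in WT. Ak6 overlaps Taf9 on the same strand and Rad17 on the opposite strand, which held 85 to 157 and 158 to 274 counts in a heart. Ak5, Ak7, Ak8 and Ak9 had at most 3 counts in any heart. Of these 8 genes 4 were tested and 0 passed, with a median log2 fold change of -0.0057, and Ak6 stood at -0.06 ± 0.13.

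Mb (ENSMUSG00000018893, chromosome 15, 77015487 to 77050670, minus strand) took 1.41 to 1.88% of all counts of a library. Mb reached 14551, 18232, 12937 and 18354 CPM in the WT hearts, by replicate number, and 18362, 14288, 14679 and 16235 CPM in the KO hearts. The ranges overlapped almost fully, and WT replicate 3 was the lowest heart. At -0.01 ± 0.15 its log2 fold change was the nearest to 0 of the 8, with an edgeR adjusted p of 0.990 and a fold interval of 0.786 to 1.25. Cygb, the cytoglobin gene of fibroblasts and other cells, averaged 84.8 ± 11.0 CPM among WT and 92.4 ± 10.9 among KO hearts, a log2 fold change of 0.12 ± 0.12 with an edgeR adjusted p of 0.878, and of 0.04 without KO replicate 7 to 0.21 without WT replicate 4. Ngb, the neuronal globin gene, had 1 to 5 counts in a heart.

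**Figure D3:**
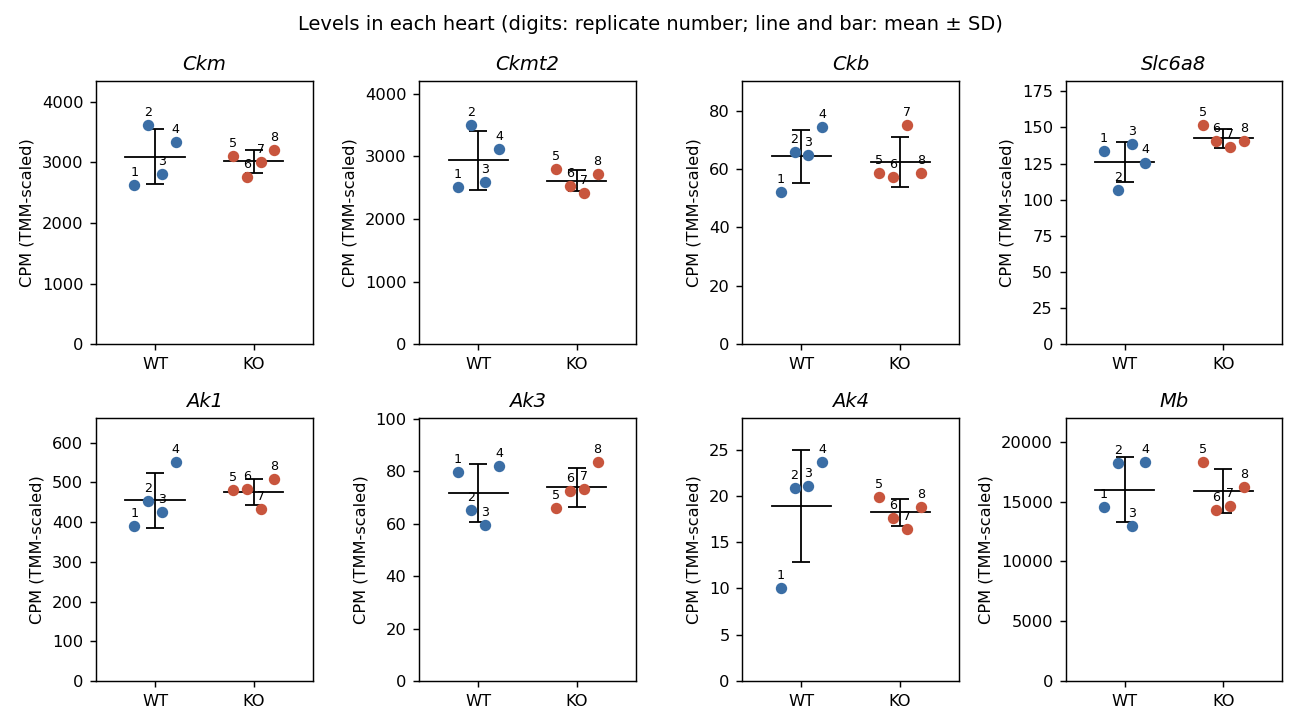
CPM of each of the 8 genes in every heart, with the replicate number above the point and a line and bar for the mean ± SD of each genotype; every axis starts at 0. The genotypes overlap in each panel, WT replicate 1 is low for Ak4 at 10.04 CPM and KO replicate 7 is high for Ckb at 75.1 CPM.

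**Figure D4:**
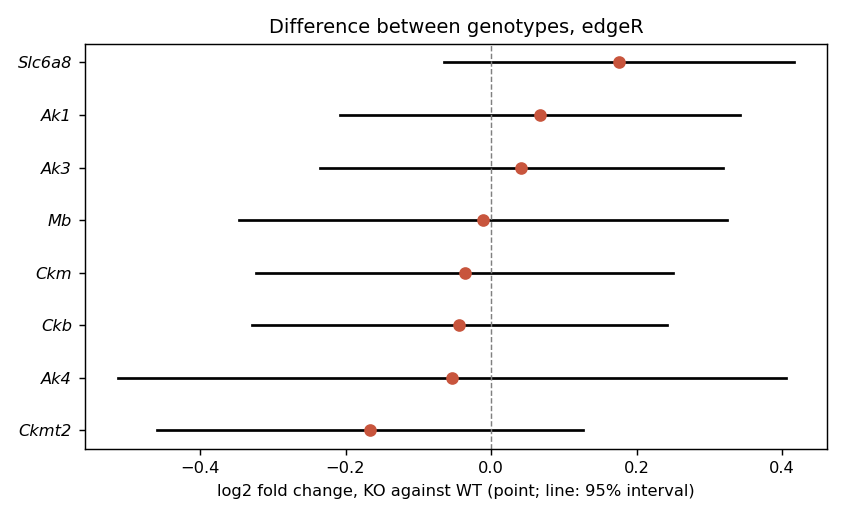
Log2 fold change of KO against WT for the 8 genes, with 95% intervals from edgeR. All intervals cross 0, and the points run from -0.17 for Ckmt2 to 0.18 for Slc6a8.

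The spread between hearts was larger in WT than in KO for all 8 genes. The coefficient of variation was 14.8% in WT and 6.18% in KO for Ckm, 15.8% and 6.70% for Ckmt2, and 32.1% and 8.20% for Ak4. The smallest gap was that of Ckb, with 14.3% and 13.6%. Over the 8668 tested genes with a mean of at least 10 CPM, the median coefficient of variation was also larger in WT, at 14.0% against 10.2%, so a wider spread in WT was common to many genes.

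The deviations of single hearts from their genotype mean followed a shared pattern for the high-level muscle genes. Over the 8 libraries, log2 CPM after subtraction of the genotype mean had a Pearson correlation of 0.93 between Ckm and Ckmt2, 0.81 between Ckm and Mb, and 0.87 between Ckmt2 and Mb. The value between Ckm and 8510 tested protein-coding genes with a mean of at least 10 CPM had a median of 0.07. Among these genes Ckmt2 came 52nd and Mb 369th by their correlation with Ckm, so the pattern was shared by many other genes. Slc6a8 lay on the other side, at -0.72 with Ckm. In each library the deviations of Ckm, Ckmt2 and Mb had the same sign. In KO replicate 7, though, Ckm lay almost at its genotype mean, at -0.0023 against -0.11 for both Ckmt2 and Mb. WT replicate 2 was the highest heart for Ckm and Ckmt2 and the lowest for Slc6a8. These are descriptions of 8 libraries that share depth and scaling. Ckm and Ckmt2 spread more in WT, so the WT hearts weigh most in the value between them. Mitochondrially encoded transcripts took 29.2% of counts in WT replicate 1, 19.4 to 19.9% in the other WT hearts and 23.0 to 26.7% in KO. With those genes removed before scaling, KO over WT was 0.975-fold for Ckm, 0.891-fold for Ckmt2 and 1.13-fold for Slc6a8, as with them.

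**Figure D5:**
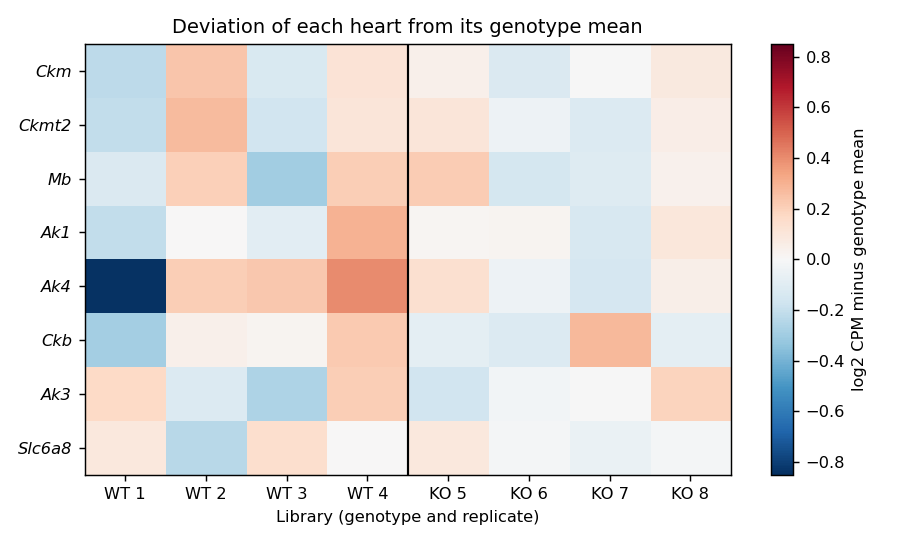
Log2 CPM of each heart minus its genotype mean, for the 8 genes (rows) and 8 libraries (columns, WT left of the line). Ckm, Ckmt2 and Mb have the same sign in each of the 8 columns, with Ckm almost at 0 in KO replicate 7 (-0.0023). The lowest value is Ak4 in WT replicate 1 at -0.84.

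The genes most like Ckm over the 8 libraries, by the same correlation and out of the same 8510 protein-coding genes with a mean of at least 10 CPM, were Ndufb5, a subunit of respiratory complex I (0.98), Vta1, a sorting factor of multivesicular bodies (0.97), and the RNA-binding protein gene Hnrnpab (0.97). Ckmt2 came 52nd in that order. Most like Mb were the splicing factor gene Snrpd3 (0.98), Yif1a, of transport between endoplasmic reticulum and Golgi (0.97), and Vwa8, of mitochondria (0.97). Most like Ckb were the zinc finger gene Fiz1 (0.98), Itm2c (0.97) and 3110040N11Rik (0.97).

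The genes that work beside the shuttle gave the same count of 0 genes passing in either direction. Exchange of adenine nucleotides and phosphate across the mitochondrial membranes was measured by 7 genes with a median log2 fold change of -0.08, of which 2 were positive and 5 negative. Slc25a4, the main heart carrier that swaps ADP for ATP, averaged 6007 ± 974 CPM among WT and 6192 ± 917 among KO hearts, and its paralog Slc25a5 averaged 182.8 ± 32.0 and 173.9 ± 14.5 CPM. The smallest p of that list belonged to Slc25a31, a carrier best known from testis, at -0.80 ± 0.41 and about 1 CPM, followed by the outer membrane channel genes Vdac3 at -0.12 ± 0.11 and Vdac2 at -0.08 ± 0.12. The 11 genes of AMP-activated protein kinase and its upstream kinases had a median of 0.06, with 8 positive and 3 negative. Cab39, a scaffold of the upstream kinase Stk11, stood at -0.26 ± 0.14, the regulatory subunit gene Prkag3 at -0.47 ± 0.30 and Prkag1 at 0.14 ± 0.10. Without WT replicate 2, Cab39 was at -0.10 and Prkag3 at -0.22, and Prkag3 was at -0.30 without KO replicate 6. Vdac2 ran from -0.14 to -0.02 with 1 library left out, and Vdac3 was at -0.07 without KO replicate 6.

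Of 10 other nucleotide kinase genes 8 were tested, with a median of 0.07. Nme1, a nucleoside diphosphate kinase, averaged 21.2 ± 3.76 CPM among WT and 16.1 ± 0.822 among KO hearts, a log2 fold change of -0.39 ± 0.14 with an edgeR adjusted p of 0.726, and the uridine and cytidine monophosphate kinase gene Cmpk1 stood at -0.26 ± 0.14. Nme2 is a close paralog that shares a readthrough annotation with Nme1, and its low level of 0.975 ± 0.738 CPM in WT and 2.05 ± 1.14 CPM in KO is uncertain. The readthrough gene, Gm20390, overlaps both on the same strand and held 0 counts in every heart. How reads shared with it were counted is not known, so the level of Nme1 is uncertain as well. Purine nucleotide cycle and salvage genes had a median of -0.06 over 12 tested genes of 15, with 2 positive and 10 negative. Adk, which recycles adenosine to AMP, stood at -0.24 ± 0.13, the salvage gene Hprt at -0.22 ± 0.18 and the adenosine deaminase gene Ada at -0.28 ± 0.30. Hprt rested on WT replicate 2, which held 81.8 CPM against 44.8 to 52.6 CPM in the other WT hearts: its log2 fold change was -0.0096 without that heart and -0.13 without KO replicate 5. Ada was at -0.14 without KO replicate 8.

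HIF1 targets, which respond to low oxygen, had a median of -0.05 over 12 tested genes of 13, with 5 positive and 7 negative. Egln3, an oxygen-sensing prolyl hydroxylase, averaged 67.6 ± 5.68 CPM among WT and 53.0 ± 3.45 among KO hearts, and its ranges did not overlap. Its log2 fold change of -0.35 ± 0.10 did not pass, with an edgeR adjusted p of 0.711, and 1.98% of all genes tested had separate ranges with KO lower. Bnip3, a mitophagy receptor, stood at -0.21 ± 0.13 and the glycolysis regulator Pfkfb3 at 0.34 ± 0.25. Without WT replicate 2 Bnip3 was at -0.11 and Pfkfb3 at 0.59, and Pfkfb3 was at 0.15 without WT replicate 4 and 0.18 without KO replicate 8. Transcription factors and coactivators of muscle and energy genes had a median of -0.04 over 12 genes. Mef2d averaged 166.7 ± 32.4 CPM among WT and 209.8 ± 23.6 among KO hearts, a log2 fold change of 0.33 ± 0.15 with an edgeR adjusted p of 0.772, the orphan receptor Esrra stood at 0.31 ± 0.18 and Esrrb at -0.29 ± 0.15. Without WT replicate 2 Mef2d was at 0.21 and Esrra at 0.21, Esrra was at 0.13 without KO replicate 5, and Esrrb was at -0.19 without KO replicate 7.

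Library totals ran from 11101901 to 14699949 counts, and the 8 genes together took 1.98 to 2.63% of them. The defining genes of cardiac muscle were abundant in all hearts, and their sum of 7 genes ran from 58604 to 69524 CPM in WT and from 60791 to 72266 CPM in KO. Markers of skeletal muscle, which also uses Ckm, Ak1 and Mb, summed to at most 5.86 CPM over 6 genes. Sums of 6 fibroblast markers ran from 890.0 to 1128 CPM in WT and from 711.4 to 916.8 CPM in KO, those of 5 endothelial markers from 1196 to 1459 and from 1193 to 1474, and those of 5 macrophage markers from 100.9 to 163.2 and from 116.5 to 179.6. Red blood cell genes summed to 814.9 to 1782 CPM in WT and 1146 to 2147 CPM in KO. All 6 fibroblast markers had negative log2 fold changes, with a median of -0.21, and all 5 red blood cell genes had positive ones, with a median of 0.31. Every other marker list with more than 1 tested gene went both ways. The part of these shifts in the levels of the 8 genes was not tested. Atrial genes summed to at most 9.96 CPM with Bmp10 at 0, nerve and Schwann cell genes to at most 16.6 CPM, and none of these marker genes that were tested passed.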

How the data were processed

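The authors deposited 1 table of raw counts per Ensembl gene, not normalized, with a column for each heart, and columns were matched to samples by name. STAR 2.7.1a and GRCm38 (mm10) are named in the submitters' processing notes. The TruSeq kit selected poly(A) RNA and kept strand, per the labels' protocols. The sources used here do not name the counter, its use of strand or the annotation, so reads of overlapping antisense genes may be included. GENCODE M21 (GRCm38) supplied symbols, positions and lengths and matched 36345 of 38293 identifiers.

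Low-count genes were removed with filterByExpr (minimum count 10). The remaining 13336 were scaled by TMM and tested together for genotype with edgeR 4.0.16 in R 4.3.3 (quasi-likelihood, two-sided), with Benjamini-Hochberg adjustment and a threshold of 0.05. SE came from the fold change and its F statistic. The edgeR p-values set the genotype difference against the variation between libraries, 1 for each heart, which is estimated in part across genes. Alternatives were DESeq2 1.42.0 (test, and its size factors alone), library totals, limma-voom (3.58.1), no filter, a floor of 1 CPM in 4 hearts, counts without mitochondrially encoded genes, a surrogate variable (sva 3.50.0) and each library left out. Count ratios were compared by exact permutation over 70 assignments. Correlations used log2(CPM + 0.5), and the search for the nearest genes kept protein-coding genes with a mean of at least 10 CPM.

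The members and lists were chosen with earlier results of these data known. The named-gene rule took the 8 members, Nbdy, passing genes and the 3 smallest p of each list, related genes and the 3 genes nearest to Ckm, Ckb and Mb. Length choices, the ratio of Ckm to Ckmt2 and genes overlapping the members were added after their values were seen. Of the related genes in the rule, 1 is not reported here.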

Additional observations from a re-analysis of the deposited data

Results flagged for a closer look

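Of 30 groups of 4 hearts examined for the 8 genes and 7 related genes, 1 held a heart far from the others: KO replicate 7 had 75.1 CPM of Ckb, while the other KO hearts had 57.3 to 58.7. By chance about 1 in 20 groups would hold such a heart. The summed level of 6 smooth muscle and pericyte markers was 1331 CPM in that heart and 697 to 1006 CPM in the other KO hearts, and in WT it ran from 917 to 1141 CPM. The part of these markers in the Ckb value was not tested.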

How the results depend on the processing

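None of the 8 genes passed under any of the 16 alternatives, and their median log2 fold change ran from -0.08 to 0.06. Ckmt2 (-0.23 to -0.07) and Slc6a8 (0.10 to 0.22) kept their direction in all 16. Genes called over the whole table, 2 higher and 1 lower, numbered 8 and 3 with DESeq2, 6 and 4 without a filter, 4 higher with 1 surrogate variable, and 2 to 5 higher and 0 to 3 lower with 1 library left out; the cause was not tested. Values near 0 changed sign. With 1 surrogate variable Ckm was 0.040, Ak4 0.045 and Mb 0.028, with limma-voom Ak4 was 0.018 and Gatm -0.080, and with library totals Ak3 was -0.0024, Gatm -0.039 and Slc25a4 -0.0057. With 1 library left out, Ckm ran from -0.11 to 0.047, Ckb from -0.15 to 0.029, Ak1 from -0.00069 to 0.17, Ak3 from -0.042 to 0.11, Ak4 from -0.26 to 0.071, Mb from -0.10 to 0.057, Gatm from -0.28 to 0.21, Slc25a4 from -0.059 to 0.12 and Slc25a5 from -0.14 to 0.037. Nbdy was lower in KO with an edgeR adjusted p of 0.0060 over all hearts, and of 0.056 without KO replicate 6. The log2 ratio of Ckm to Ckmt2 ran from 0.09 to 0.16 with 1 library left out. Its exact permutation p was 0.0286 with all hearts and 0.0857 without any 1 WT heart, where the groups were of uneven size and their ranges stayed separate. The level of Ckmt2 over Ckm per length, 1.78 by the union of exons, was 0.754 with the shortest and 1.67 with the longest basic transcripts, a choice added after the data were seen. No paired analysis was made, because the labels give no pairing of WT hearts with KO hearts. The SE of these 8 genes ran from 0.11 to 0.21, and the printed 95% intervals give the differences compatible with the data. They are not limits of detection, because the adjusted threshold is stricter. Egln3 had a log2 interval of -0.57 to -0.13, which excludes 0, and its edgeR adjusted p was 0.711. Differences somewhat outside the printed intervals could therefore also have gone uncalled.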

Other observations

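Other measures moved with single genes from heart to heart, given here as values with no explanation; each correlation is over 8 libraries after subtraction of the genotype mean, and the relations were picked after the values were seen. Ak4 was lowest in WT replicate 1, the heart with the highest share of mitochondrially encoded counts, and its correlation with that share was -0.95. That heart weighs most in the value: its Ak4 deviation was -0.84, against -0.14 to 0.40 in the other hearts. Slc6a8 had a correlation of -0.93 with the summed adipocyte markers, which reached 15.3 CPM in WT replicate 2 against 0.817 to 2.53 CPM in the other WT hearts and 0.700 to 2.54 CPM in KO, and of -0.88 with the fibroblast markers. Ckm had a correlation of 0.88 with the red blood cell genes and 0.80 with the cardiac muscle markers, and Ckb one of 0.72 with the smooth muscle and pericyte markers. The search covered all 8 genes against every marker list and the mitochondrially encoded share. It held other values as large as some of these. Ckmt2 had 0.86 with the cardiac muscle markers and Mb 0.84 with the macrophage markers. Ak4 had 0.85 with the skeletal muscle markers and -0.84 with the nerve and Schwann cell markers.

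A transcript antisense to Ckm, A930016O22Rik, held 159 counts in KO replicate 5 and 29 to 71 in the other 7 hearts. This was 11.1 CPM against 2.67 to 5.57 CPM. Ckm itself was not the highest in that heart, at 3099 CPM, and the antisense counts amounted to at most 0.359% of those of Ckm.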
